A study of Mus musculus with 9 samples.

Results

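Mannose added to a high fat diet was compared with the high fat diet alone in the epididymal fat pad, a visceral depot attached to the epididymis. The comparison was between 6 of the 9 samples of the study. These were 3 mice fed high fat diet (HFD) and 3 mice fed the same diet while drinking water with 2% mannose (HFDM). All were C57BL6/J mice aged 16 weeks that had been on their diet since weaning, and the 3 remaining samples came from mice on a normal diet (ND). ND levels are given here as a description, but the ND arrays also shared the normalization and the variance estimate behind every SE and p-value. Each sample was 1 bulk RNA on 1 Illumina bead array with 45281 probes. The 19264 probes with a detection p under 0.05 on at least 3 of the 6 HFD and HFDM arrays were tested, and 16523 of them carried 1 gene symbol, for 10997 genes. Levels below are normalized log2 intensities, so a difference of 1 is 2-fold, and values are given for mice 1, 2 and 3 of a diet in that order. The labels do not say how many litters or cages the mice came from.

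Mannose is a hexose sugar and a building block of the N-linked glycans of proteins. It enters cells through hexose transporters, is phosphorylated, and is then either turned into fructose 6-phosphate by phosphomannose isomerase (Mpi) or passed on to GDP-mannose through phosphomannomutase (Pmm2). In obesity, fat tissue gains macrophages that gather around dying adipocytes. A population of these cells, the lipid-associated macrophages, takes up lipid and is marked by the receptor Trem2 and by genes for lysosomal enzymes and lipid handling.

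Between 18403 and 20437 probes were detected on each of the 6 arrays. Pearson correlations across probes were 0.883 to 0.981 within a diet and 0.860 to 0.975 between diets. Adipocyte genes marked every array as fat, with leptin (Lep) between 15.63 and 16.00 on the 9 arrays. Genes of sperm formation set some arrays apart from others of their own diet. The mean level of 5 testis markers (Prm1, Tnp1, Tnp2, Odf1 and Akap4) was 5.56, 5.57 and 10.86 on the HFD arrays and 12.65, 5.91 and 10.91 on the HFDM arrays. In ND it was 6.32, 11.36 and 9.15. Sperm nuclear protamine (Prm1) alone measured 7.70, 7.09 and 14.53 in HFD and 15.63, 8.43 and 14.56 in HFDM. Of 45 listed epididymis and testis markers 12 were tested and none was called (median difference 1.96). With the testis marker mean as a covariate, 96 of the 181 called probes stayed called. On the 4 arrays with a marker mean under 7.5 (HFD mice 1 and 2, HFDM mouse 2 and ND mouse 1) 17 did, with HFDM a single mouse assumed to vary like the other diets.

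Among probes that passed the test, most were lower in fat of mannose-treated mice. At an adjusted p under 0.05 (limma's moderated test, Benjamini-Hochberg over all tested probes), 181 probes differed, or 0.94% of those tested. Of these, 166 were lower in HFDM (0.862%) and 15 were higher (0.0779%). The 167 that carried 1 symbol stood for 145 genes, 133 lower and 12 higher. The median difference was -1.72 among the lower and 1.57 among the higher probes, against -0.04 over all tested probes. Without regard to the test the direction was the other way among large differences, with 581 tested probes at least 2-fold lower and 970 at least 2-fold higher, and 53.6% of all genes lay below 0. With probes undetected in the dimmer diet taken at their bound, 49 called probes were at least 4-fold lower and 10 at least 8-fold lower, and 2 were at least 4-fold higher. For all 181 the 3 HFD values did not overlap the 3 HFDM values, which was also so for 23.5% of all tested probes. Of the lower probes, 33 were not detected on any HFDM array. Among all tested probes, 101 were detected on all 3 HFD arrays and on no HFDM array. The reverse held for 127, of which 2 were called.

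**Figure D1:**
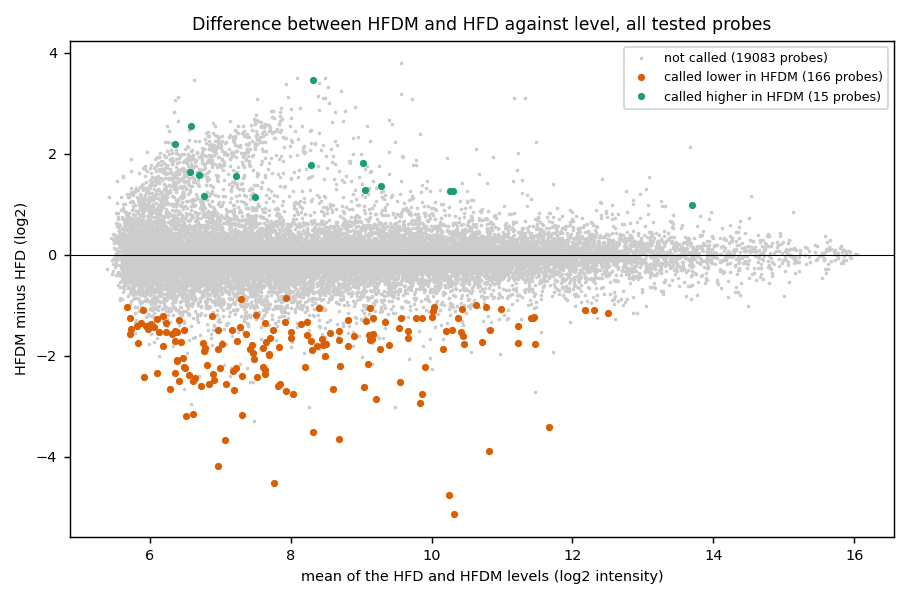
Difference between HFDM and HFD (log2, vertical axis) against the mean log2 level of the HFD and HFDM mice (horizontal axis) for the 19264 tested probes. The 166 probes called lower (orange) lie at low and middle levels, the 15 called higher (green) are few, and many grey probes with large positive differences were not called.

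The count of calls changed when arrays were left out. It fell from 181 to between 4 and 49 when any single HFD or HFDM array was left out: 14, 4 and 41 without HFD mouse 1, 2 or 3, and 35, 49 and 46 without HFDM mouse 1, 2 or 3. Leaving out ND mouse 1 or 3, which share the normalization and the variance estimate, gave 278 and 118. Among the 15 largest falls, Rgs1, Vsig8, Saa3, Gpnmb, Nup210 and Ct55 were called under every alternative setting that tested their probes, 20 settings for Rgs1, Vsig8 and Gpnmb and 23 for the others. For Gpnmb this holds for its probe with the largest fall, while its brightest probe was called in 16 of 23 settings. The settings that did not test these Rgs1, Vsig8 and Gpnmb probes were those that left out an HFD array. The probes were undetected in HFDM, so they then failed the detection filter, and their record does not cover those settings. None of the 12 higher genes was called under every alternative setting, each being called in 7 to 16 settings.

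Genes of lipid-associated macrophages were among the largest falls. In bulk tissue, fewer cells of a type and less RNA per cell cannot be told apart, which holds for every cell type named below. Trem2, a lipid-sensing receptor, measured 10.86, 11.53 and 11.31 in HFD and 8.23, 8.79 and 8.42 in HFDM. The lowest HFD mouse lay well above the highest HFDM mouse, and the difference was -2.75 ± 0.40 (SE, n = 3 per diet; 6.72-fold, limma adjusted p = 0.0252). Gpnmb, a transmembrane glycoprotein of lipid-loaded macrophages, was covered by 4 probes, and all 4 were called. Its brightest probe read 12.98, 13.75 and 13.36 in HFD and 9.59, 10.17 and 10.12 in HFDM (difference -3.40 ± 0.47, limma adjusted p = 0.0205). A dimmer Gpnmb probe was not detected on any HFDM array and was at least 9.29-fold lower there. The remaining Gpnmb probes were lower by at least 3.01-fold and by 4.13-fold. Mmp12, the macrophage elastase, measured 10.02, 9.85 and 10.37 in HFD against 5.78, 6.71 and 7.21 in HFDM. The HFDM mice differed more among themselves than the HFD mice, and the difference was -3.51 ± 0.58 (limma adjusted p = 0.0361).

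Slc37a2, a sugar-phosphate exchanger of macrophages, measured 8.77, 9.84 and 9.23 in HFD and 6.42, 6.75 and 6.59 in HFDM (difference -2.69 ± 0.29, limma adjusted p = 0.0087). Lipa, the lysosomal acid lipase, was tightly grouped in HFDM at 10.80, 10.79 and 10.83, below 12.06, 12.23 and 11.90 in HFD (difference -1.26 ± 0.19, limma adjusted p = 0.0263). Dcstamp, which acts in cell fusion, was not detected on any HFDM array and was at least 1.58-fold lower. These 6 were the called members of the 22 listed lipid-associated macrophage genes, of which 19 were tested. Of all 10997 genes, each taken by its brightest probe, 1.04% were called lower and 0.1% higher. The median difference of the 19 was -0.98, against -0.03 over all genes, and 17 lay below 0. A gene could enter the test by being detected in 1 diet alone, so the tested members are not all members. The gene lists here and below were chosen with earlier results of these data known. Their counts and medians beside those of all genes are therefore a description and not independent evidence.

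Uncalled members did not all lie low. Lgals3 (galectin 3), at 14.93, 15.04 and 15.03 in HFD and 13.91, 14.00 and 14.06 in HFDM, had separate groups, as 16.1% of all genes did with HFDM lower, but did not pass the test (limma adjusted p = 0.0875). Ctsk, a cathepsin, differed by -1.27 ± 0.30 (limma adjusted p = 0.0987). Apoe, which carries lipid out of cells, lay the other way, at 12.98, 12.30 and 12.49 in HFD and 13.13, 13.41 and 13.20 in HFDM, and was not called (limma adjusted p = 0.294). The mean over the 21 listed genes on the array was 10.27 to 10.46 on the HFD arrays, 9.08 to 9.37 on the HFDM arrays and 8.93 to 9.47 on the ND arrays. With any single HFD or HFDM array left out, 0 to 2 of these genes were called, and 5 with the testis marker covariate.

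**Figure D2:**
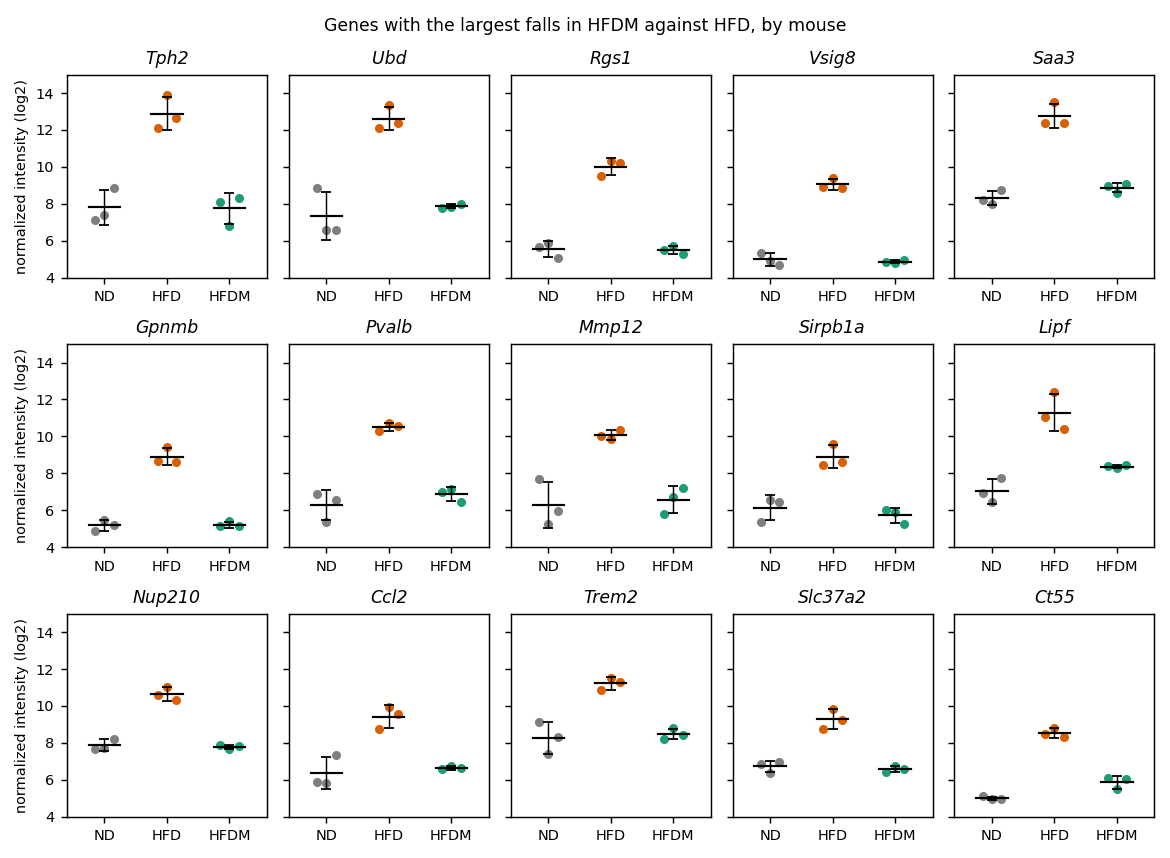
Normalized log2 intensity (vertical axes) of the 15 genes with the largest falls in each mouse of the ND (grey), HFD (orange) and HFDM (green) diets; the bar is the mean and the error bar the SD of 3 mice. In every panel the 3 HFD mice lie above the 3 HFDM mice.

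Among general macrophage markers, 3 genes fell. Of 21 listed, 16 were tested, 3 were called lower and 15 lay below 0, with a median of -0.59. Adgre1, the surface marker F4/80, measured 10.85, 11.18 and 10.84 in HFD and 9.73, 9.99 and 9.96 in HFDM (difference -1.07 ± 0.17, limma adjusted p = 0.0331). Its 2 other tested probes differed by -1.27 ± 0.25 and -1.17 ± 0.67 and were not called (limma adjusted p = 0.0552 and 0.513). Mpeg1 (perforin 2) measured 10.99, 10.98 and 10.91 in HFD and 9.17, 9.61 and 9.58 in HFDM (difference -1.50 ± 0.24, limma adjusted p = 0.0337). Adgre1 and Mpeg1 were each called in 11 of 23 alternative settings. Ctss, a cathepsin that trims the class II invariant chain, differed by -1.49 ± 0.25 (limma adjusted p = 0.0362). The abundant lysozyme Lyz2 measured 14.20, 14.64 and 14.12 in HFD and 14.04, 13.87 and 13.42 in HFDM, a difference of -0.54 ± 0.38 that was not called. Csf1r, the receptor for the macrophage growth factor CSF1, differed by -0.54 ± 0.23 and Fcer1g, an Fc receptor subunit, by -0.88 ± 0.32, neither of them called. Mrc1, the macrophage mannose receptor, overlapped between the diets at 11.74, 12.28 and 11.70 in HFD and 11.68, 11.74 and 11.31 in HFDM. With any single HFD or HFDM array left out, 0 or 1 of the macrophage markers were called, as was 1 without ND mouse 3, and 0 with the testis marker covariate.

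Antigen presentation and lysosome genes lay below 0 with few calls. All 9 listed class II genes were tested, and all 9 lay below 0 with a median of -0.64. H2-DMb1, a subunit of the peptide loading complex, was the called member, at 11.92, 12.32 and 11.96 in HFD and 10.89, 10.98 and 10.62 in HFDM (difference -1.24 ± 0.22, limma adjusted p = 0.0394). The class II chains H2-Ab1 and H2-Eb1 each differed by -0.80 (SE 0.21 and 0.19) and were not called. Their groups were separate, as for 16.1% of all genes with HFDM lower. Of 18 tested lysosome genes 16 lay below 0 (median -0.49) and Ctss was the called member. H2-DMb1 and Ctss were each called in 10 of 23 alternative settings.

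Acute-phase and chemokine genes that draw leukocytes into tissue also fell. Saa3, an acute-phase apolipoprotein made in inflamed fat, measured 12.35, 13.52 and 12.39 in HFD and 8.94, 8.59 and 9.07 in HFDM. Every HFD mouse exceeded every HFDM mouse by over 8-fold, and the difference was -3.89 ± 0.34 (14.8-fold, limma adjusted p = 0.00251). In ND Saa3 measured 8.21, 8.0 and 8.74. Ccl2, the chemokine that recruits monocytes, measured 8.73, 9.92 and 9.58 in HFD and 6.56, 6.77 and 6.63 in HFDM (difference -2.75 ± 0.43, limma adjusted p = 0.0287). Cxcl1, a neutrophil chemokine, measured 8.22, 8.91 and 8.45 in HFD and 6.48, 7.0 and 6.59 in HFDM (difference -1.84 ± 0.33, limma adjusted p = 0.0435). Il1rn, which blocks the interleukin 1 receptor, fell too (difference -2.24 ± 0.32, limma adjusted p = 0.0229).

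These 4 were the called members, by their brightest probes, of 19 tested among 26 listed cytokine and chemokine genes, with a median of -1.19 and 17 below 0. Ccl9 (difference -1.16 ± 0.22), Ccl6 (-1.16 ± 0.24) and Ccl5 (-1.40 ± 0.31) had separate groups without passing the test. Separate groups with HFDM lower were seen in 16.1% of all genes. Tnf was not detected on enough arrays to be tested, and Il1b overlapped between diets at 5.69, 6.92 and 6.21 in HFD and 5.71, 5.40 and 5.40 in HFDM. The list's mean ranged from 7.93 to 8.64 on HFD arrays and from 6.96 to 7.25 on HFDM arrays. With any single HFD or HFDM array left out, 1 or 2 of its genes were called, and 3 with the testis marker covariate.

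The 250 bases upstream of the start of genes that fell were searched on both strands for motifs of factors known in inflammation and macrophages, using RefSeq sequences of build GRCm38.p6. Among 23 named lower genes with a sequence, the NF-kB motif (GGG, any 2 bases, then TTTCC) was found for Ubd, Cxcl1 and Il1rn, and in 1.41% of all 32851 promoters. The AP-1 motif TGACTCA was found for Il1rn, Mmp12 and Slc37a2 (4.46% of all promoters) and the C/EBP motif TTNNGCAA for Il7r, Mmp12, Saa3 and Sdc1 (9.56%). The PU.1 motif GAGGAAGT was found for Mmp12 and Vsig8 (2.44%), and the lysosomal E-box TCACGTGA for none (0.785%). Among 11 higher genes, C/EBP matched 4 and the others 0. A match is a description of the letters, and genes can have several windows. The shares of all promoters count windows, and the 23 lower genes had 28 windows. Of those, NF-kB, AP-1 and PU.1 each matched 3 and C/EBP matched 4. The 11 higher genes had 14 windows, of which C/EBP matched 4. The 4 below are shown, after the matches were known, because they place an inflammatory or macrophage gene that fell beside its match, in capitals; they are written 5′ to 3′ along the gene's strand. The NF-kB match of Ubd begins 15 bases before the start, and Cxcl1 holds a pair of NF-kB matches, 1 on each strand, that begin 89 and 71 bases before it. Saa3 holds a C/EBP match and Slc37a2 an AP-1 match, 99 and 107 bases before the start.
Ubd (chr17:37193642-37193891, plus strand): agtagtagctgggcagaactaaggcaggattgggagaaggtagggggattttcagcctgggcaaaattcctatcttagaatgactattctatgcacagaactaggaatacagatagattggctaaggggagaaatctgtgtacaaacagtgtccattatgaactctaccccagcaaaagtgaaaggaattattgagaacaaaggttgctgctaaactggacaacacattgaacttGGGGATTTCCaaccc
Cxcl1 (chr5:90890995-90891244, plus strand): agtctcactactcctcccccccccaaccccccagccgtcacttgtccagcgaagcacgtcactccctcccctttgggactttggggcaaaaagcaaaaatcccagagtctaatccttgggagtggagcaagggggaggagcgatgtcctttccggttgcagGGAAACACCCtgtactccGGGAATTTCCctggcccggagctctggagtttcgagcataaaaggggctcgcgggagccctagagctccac
Saa3 (chr7:46715677-46715926, minus strand): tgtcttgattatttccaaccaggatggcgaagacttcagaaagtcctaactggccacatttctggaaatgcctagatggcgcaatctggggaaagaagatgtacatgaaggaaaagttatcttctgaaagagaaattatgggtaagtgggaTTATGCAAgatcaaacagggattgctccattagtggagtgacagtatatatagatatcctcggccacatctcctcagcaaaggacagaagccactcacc
Slc37a2 (chr9:37255739-37255988, minus strand): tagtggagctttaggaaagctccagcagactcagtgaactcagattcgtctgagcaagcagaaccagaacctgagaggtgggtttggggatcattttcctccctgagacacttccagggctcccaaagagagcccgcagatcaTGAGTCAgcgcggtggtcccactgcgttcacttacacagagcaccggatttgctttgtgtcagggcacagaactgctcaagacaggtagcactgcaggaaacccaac

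The lists for other leukocytes held single calls. Il7r, the interleukin 7 receptor of lymphocytes, measured 8.88, 9.47 and 9.04 in HFD and 6.49, 6.95 and 6.29 in HFDM (difference -2.55 ± 0.25, limma adjusted p = 0.00532). It was the called gene of 11 tested T cell and NK cell markers, of which 10 lay below 0 (median -0.46). Of the 11, Cd3e (-0.07 ± 0.25) and Cd3d (0.12 ± 0.37), subunits of the T cell receptor complex, lay near 0. Sdc1, a syndecan of plasma cells and epithelia, was the called gene of 8 tested B cell and plasma cell markers (-1.35 ± 0.22, limma adjusted p = 0.0312). No gene was called among 10 tested markers of neutrophils, eosinophils and mast cells. There S100a8, a neutrophil calcium-binding protein, measured 12.46, 13.77 and 12.26 in HFD and 9.96, 9.99 and 10.40 in HFDM (limma adjusted p = 0.115). Tk1, the S-phase thymidine kinase, was the called gene of 15 tested cell cycle genes (-2.24 ± 0.42, limma adjusted p = 0.0484), 14 of which lay below 0; it was called in 4 of 23 alternative settings. Atf3, a stress-induced transcription factor, was the called gene of 20 tested unfolded protein response genes (-2.28 ± 0.36, limma adjusted p = 0.0302). Of the same 23 settings, Il7r was called in 21, Atf3 in 14 and Sdc1 in 10.

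Rgs1, which damps chemokine receptor signalling in leukocytes, fell the most among genes seen by several probes. It measured 9.50, 10.34 and 10.21 in HFD and was not detected on any HFDM array, where it was at least 20.2-fold lower (limma adjusted p = 0.000705). All 3 of its probes were called, the others being at least 5.37-fold and 5.67-fold lower. Sirpb1a, a signal-regulatory protein of myeloid cells, measured 8.48, 9.60 and 8.61 in HFD and 6.01, 5.92 and 5.23 in HFDM (difference -3.18 ± 0.41, limma adjusted p = 0.0179). Ubd (FAT10), a ubiquitin-like protein induced by inflammatory cytokines, measured 12.12, 13.34 and 12.39 in HFD and 7.76, 7.85 and 8.0 in HFDM. The HFDM mice lay close together, and the difference was -4.74 ± 0.57 (26.8-fold, limma adjusted p = 0.0137).

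Several of the largest falls were in genes best known from other tissues. Tph2, the enzyme of serotonin synthesis in neurons, measured 12.11, 13.88 and 12.65 in HFD and 8.12, 6.81 and 8.30 in HFDM. It had the largest difference of any called probe, -5.13 ± 0.61 (35-fold, limma adjusted p = 0.0119), from a single probe, and ND mice measured 7.15, 7.40 and 8.87. Lipf, the gastric lipase, measured 11.07, 12.39 and 10.42 in HFD and 8.38, 8.27 and 8.45 in HFDM (difference -2.93 ± 0.49, limma adjusted p = 0.0362). Pvalb, the calcium-binding parvalbumin of fast muscle fibres, measured 10.27, 10.71 and 10.56 in HFD and 7.0, 7.18 and 6.43 in HFDM (difference -3.65 ± 0.39, limma adjusted p = 0.0087). Muscle contraction genes did not pass the test beside it: Mylpf differed by -0.16 ± 0.30, Tnnc2 by -0.36 ± 0.43 and Acta1 by -0.94 ± 0.31. Pvalb was the called member of 9 tested liver and muscle markers, of which 8 lay below 0 (median -0.47). The mean of the 17 listed genes was 6.67 to 7.55 on HFD arrays, 6.17 to 6.34 on HFDM arrays and 5.90 to 6.83 on ND arrays.

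Nup210, a nuclear pore protein, measured 10.58, 11.04 and 10.32 in HFD and 7.89, 7.65 and 7.83 in HFDM (difference -2.86 ± 0.24, limma adjusted p = 0.0022). Its ND mice measured 7.65, 7.70 and 8.23. Vsig8, an immunoglobulin-domain membrane protein, was detected on all 3 HFD arrays at 8.89, 9.42 and 8.86 and on no HFDM or ND array. It was at least 10.4-fold lower in HFDM and had the smallest adjusted p of all probes (limma, 0.000411). Ct55, a cancer/testis antigen, measured 8.48, 8.83 and 8.30 in HFD and 6.08, 5.48 and 6.02 in HFDM (difference -2.67 ± 0.22, limma adjusted p = 0.0022). Within HFDM it was lowest in mouse 2, as the testis markers were, and within HFD it was lowest in mouse 3, where they were brightest.

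The 12 genes called higher in HFDM were members of none of the 32 lists. Acsm3, a mitochondrial medium-chain acyl-CoA ligase, rose the most, from 7.45, 5.25 and 7.08 in HFD, with 1 array below detection, to 9.49, 10.27 and 10.41 in HFDM (difference 3.46 ± 0.61, 11-fold, limma adjusted p = 0.0394). Without HFD mouse 2 the difference was 2.77 (6.81-fold, limma adjusted p = 0.168), and the other Acsm3 probe was 5.75-fold higher without being called (limma adjusted p = 0.0641). In ND the first probe measured 9.52, 11.20 and 10.55. Ripk4, a kinase of epithelial differentiation, was called on a probe that was not detected on any HFD array and was at least 4.23-fold higher in HFDM, at 7.36, 8.52 and 7.71 (limma adjusted p = 0.0263). Its other probe was detected on all 3 HFD arrays, at 6.26, 5.96 and 6.49, and was 2.76-fold higher in HFDM without being called (limma adjusted p = 0.113). The transcript 2010016I18Rik was also undetected in HFD and at least 3.17-fold higher. Cyp2f2, a cytochrome P450, measured 6.97, 7.44 and 7.80 in HFD and 9.12, 8.91 and 9.49 in HFDM (difference 1.77 ± 0.28, limma adjusted p = 0.028). Its ND level of 11.07, 11.37 and 10.68 lay above both.

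Sfxn1, a mitochondrial serine transporter and the brightest gene called higher, measured 13.13, 13.08 and 13.39 in HFD and 14.19, 14.22 and 14.13 in HFDM. The HFDM mice lay close together (difference 0.98 ± 0.18, limma adjusted p = 0.0474). Pdlim3, an actinin-binding protein of the muscle cytoskeleton, had the smallest adjusted p among risers with a gene symbol (difference 1.36 ± 0.19, limma adjusted p = 0.0216). Vnn3, a pantetheinase, was called on both of its higher probes, each at 1.27. Flvcr2, a choline and haem transporter, differed by 1.15 ± 0.19. Pde1a, a calmodulin-dependent phosphodiesterase (1.82 ± 0.33), Fign, a microtubule-severing enzyme (1.64 ± 0.30), Rasgrf1, an exchange factor for Ras (1.57 ± 0.28), and the non-coding Snhg11 (1.28 ± 0.24) made up the rest. Of the 12 genes, 7 had further tested probes that were not called, 8 in all, and all 8 lay above 0. With HFD mouse 2, HFDM mouse 2 or HFDM mouse 3 left out, no probe was called higher.

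**Figure D3:**
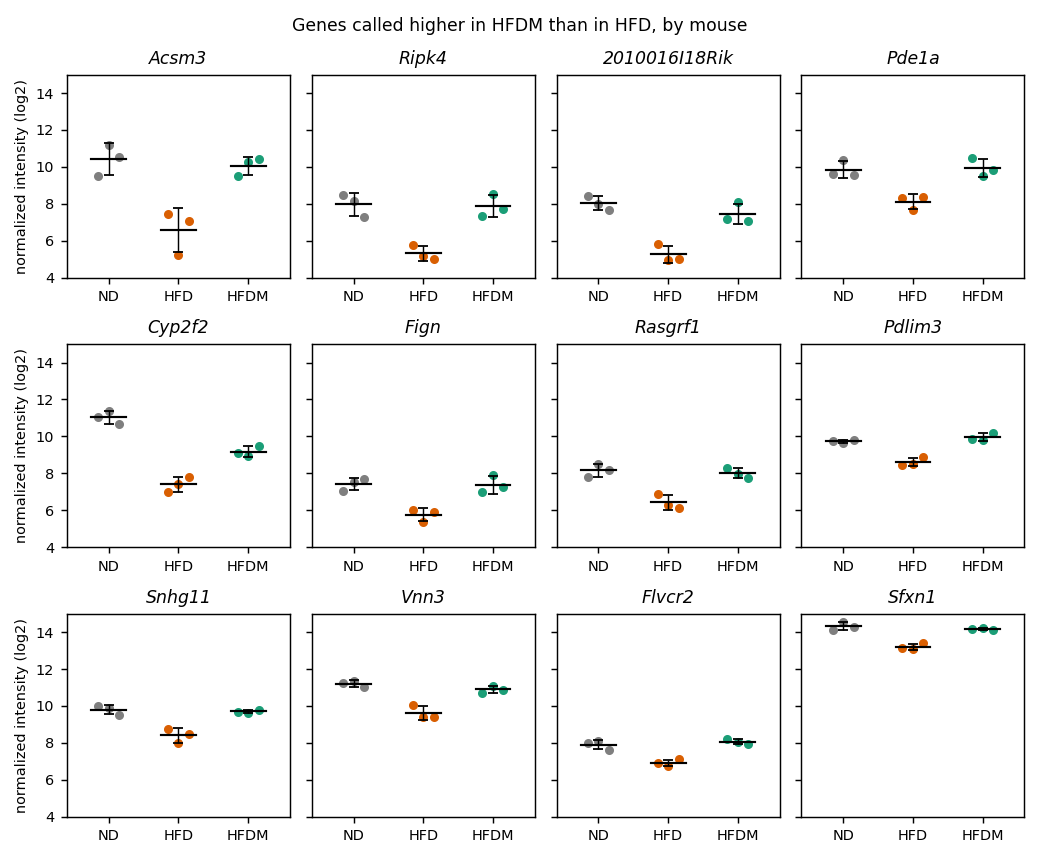
Normalized log2 intensity (vertical axes) of the 12 genes called higher in HFDM, in each mouse of the ND (grey), HFD (orange) and HFDM (green) diets; the bar is the mean and the error bar the SD of 3 mice. In every panel the 3 HFDM mice lie above the 3 HFD mice, and the ND mice also lie above the HFD mice.

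Genes that handle mannose itself were not called in either direction. Of 19 listed genes of mannose metabolism and GDP-mannose supply 18 were tested, 10 lay below 0, and the median was -0.02. Mpi measured 9.57, 9.89 and 10.21 in HFD and 10.55, 9.82 and 9.82 in HFDM (difference 0.17 ± 0.25). Pmm2 measured 10.28, 10.27 and 10.12 in HFD and 10.21, 10.20 and 10.38 in HFDM (difference 0.04 ± 0.16). The brightest member, Gfus, an enzyme of GDP-fucose synthesis from GDP-mannose, differed by -0.02 ± 0.19. Slc35c1, the GDP-fucose transporter, differed by -0.07 ± 0.21, and Gfpt1, the entry enzyme of the hexosamine pathway, by 0.09 ± 0.21. The dolichol-phosphate-mannose synthase subunits Dpm2 and Dpm3 differed by -0.21 ± 0.33 and 0.21 ± 0.52. Nans, a sialic acid synthase, had the largest difference of the list with separate groups (-0.84 ± 0.28, limma adjusted p = 0.222). Of all genes, 16.1% had separate groups with HFDM lower.

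Glycan assembly genes likewise gave no call. The median was -0.19 both for 22 tested genes of N-glycan assembly and transfer and for 24 tested mannosidases and N-glycan processing genes. Of 16 tested mannose-binding lectins and receptors none was called, 15 lay below 0 and the median was -0.47. The lowest were Clec4d (-1.84 ± 0.38, limma adjusted p = 0.0641) and Clec7a (-1.59 ± 0.40, limma adjusted p = 0.11), lectin receptors of myeloid cells. Mrc1, described above, differed by -0.33 ± 0.28.

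Adipocyte genes were not called. Of 20 listed identity genes 18 were tested, with a median of 0.15 and 7 below 0. Adipoq (adiponectin) measured 15.53, 15.17 and 15.44 in HFD and 15.61, 15.60 and 15.46 in HFDM (difference 0.18 ± 0.17). Lep, the adipokine leptin, measured 15.90, 16.00 and 15.96 in HFD and 15.95, 15.97 and 15.88 in HFDM, and Lpl, the lipoprotein lipase, differed by 0.01 ± 0.15. The levels of Lpl and Lep lay next to the highest normalized value on an array, 16.05, where a difference would be compressed. Plin4 and Cidec, lipid droplet proteins, differed by 0.14 ± 0.17 and -0.08 ± 0.19. Mrap, an accessory protein of the corticotropin receptor, measured 13.83, 14.45 and 14.13 in HFD and 13.64, 13.52 and 13.76 in HFDM and was not called (limma adjusted p = 0.418). Its groups were separate, as for 16.1% of all genes with HFDM lower.

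Lipid synthesis and respiration genes were not called either. Of 19 tested genes of fatty acid and triglyceride synthesis, 4 had all HFDM mice above all HFD mice, as 8.89% of all genes did. These included Thrsp, a lipogenic regulator, at 12.48, 12.02 and 12.45 in HFD and 13.22, 13.38 and 13.63 in HFDM (limma adjusted p = 0.243). Acacb, the acetyl-CoA carboxylase of mitochondria, differed by 1.08 ± 0.27 (limma adjusted p = 0.118). Among 21 tested oxidative phosphorylation genes 19 lay above 0 and the median was 0.22. Of the 21, 7 had all HFDM mice above all HFD mice, against the same 8.89% of all genes. Ndufb8, a subunit of complex I, differed by 0.55 ± 0.28 (limma adjusted p = 0.458). The mean over the 24 listed genes on the array was 11.71, 11.84 and 12.08 in HFDM and 11.75, 11.61 and 11.73 in HFD. Of 15 tested genes of fatty acid oxidation and thermogenesis none was called, and several were high in HFDM mouse 3 alone. Cox7a1 measured 9.46, 9.79 and 13.11 in the HFDM mice against 10.52, 10.18 and 10.36 in the HFD mice, and Cox8b measured 10.15, 9.86 and 13.70 against 11.37, 11.43 and 11.04.

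Matrix genes, of which 26 were tested, were not called by their brightest probes (20 below 0, median -0.42). The collagen Col6a2 measured 12.71, 12.44 and 12.48 in HFD and 11.58, 11.27 and 11.71 in HFDM (limma adjusted p = 0.128), and Timp1, an inhibitor of matrix proteases, differed by -1.81 ± 0.53. Cholesterol synthesis genes had a median of -0.43 over 15 tested, 12 of them below 0. No gene was called in the lists for glycolysis and pentose phosphate, insulin and adipokine signalling, interferon response, hypoxia and angiogenesis, endothelium, mesothelium, fibroblasts, erythroid cells or milk protein and gland keratin genes. Over all 32 lists, 19 genes were called lower by limma on their brightest probe and 22 on any probe, the other 3 being Ccl7, Cxcl12 and Mmp3, and 0 were called higher on any probe.

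**Figure D4:**
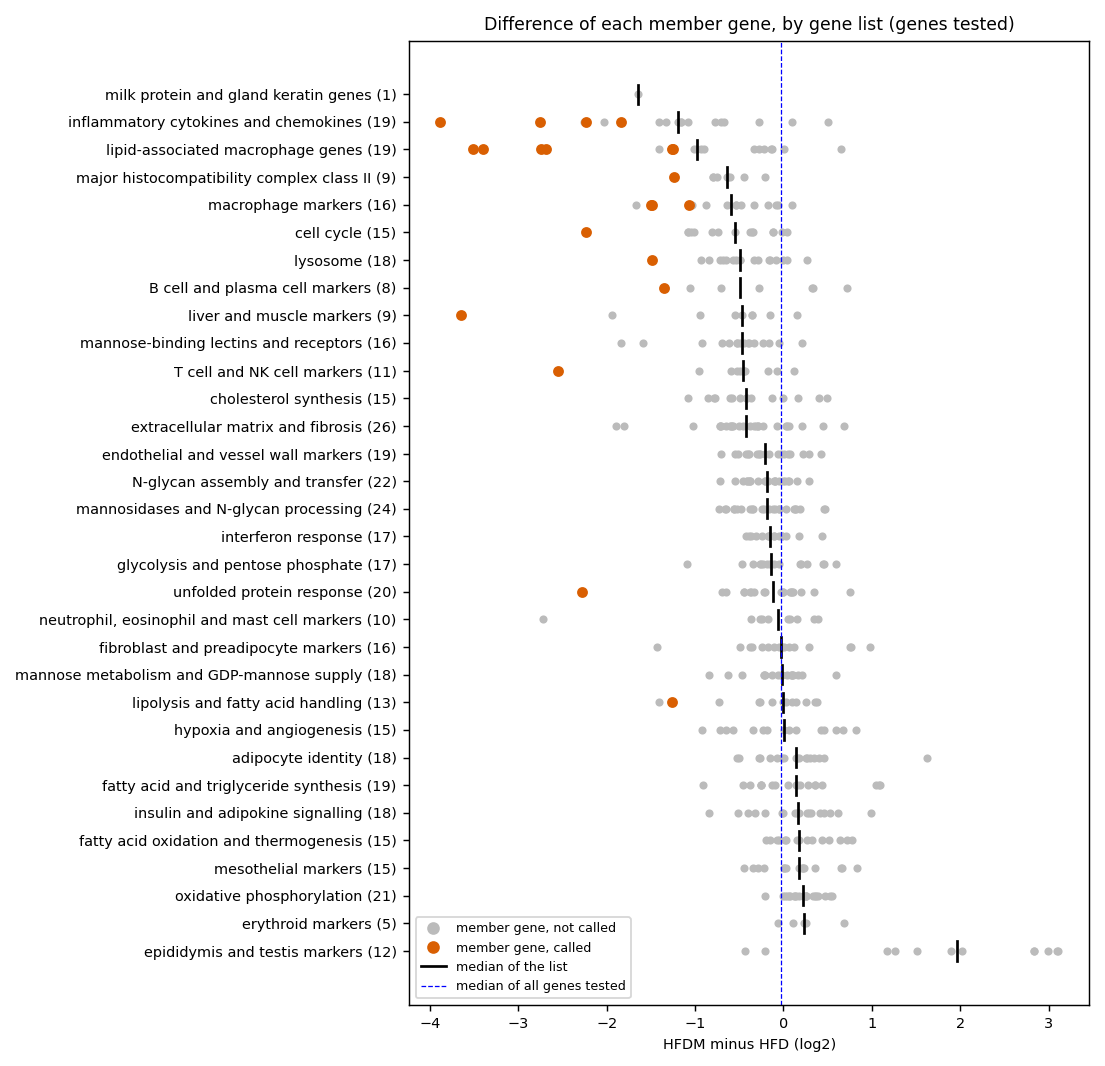
Difference HFDM minus HFD (log2, horizontal axis) of each tested member gene, taken by its brightest probe, in the 32 gene lists (rows, number tested in brackets); orange points were called, black ticks are list medians and the dashed line is the median of all genes. The called genes all lie to the left, and most sit in the cytokine, lipid-associated macrophage and macrophage rows.

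**Figure D5:**
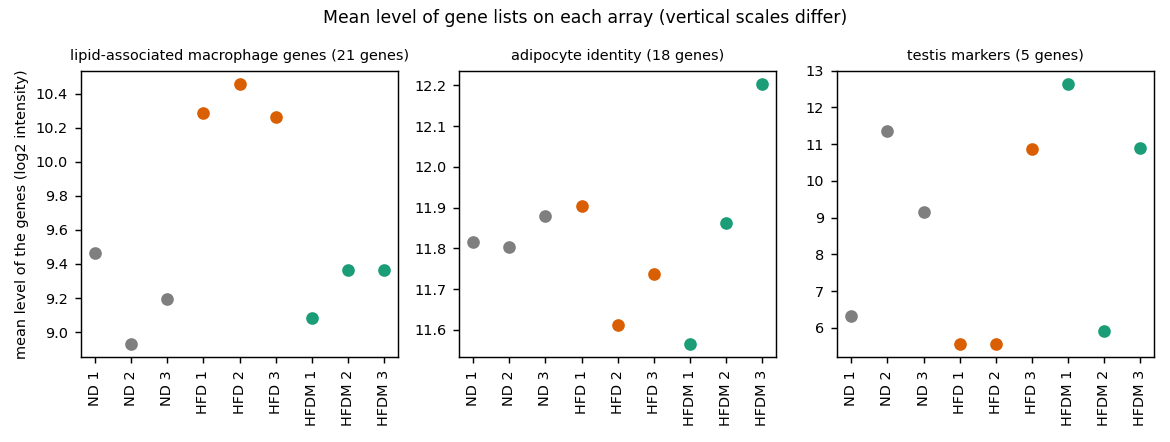
Mean log2 level (vertical axes, which differ between panels) of the 21 lipid-associated macrophage genes, the 18 adipocyte identity genes and the 5 testis markers on each of the 9 arrays. The macrophage panel separates the 3 HFD arrays from the other 6, the adipocyte panel does not separate HFD from HFDM, and the testis panel differs within each diet.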

How the data were processed

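Total RNA of each fat pad was hybridised to a single-colour Illumina array, and GenomeStudio (version not given) was used upstream, per the submitters' processing notes. Per the file headers, the deposited intensity is an average over beads, and a detection p-value stands beside it. Negative values made up 27.3% to 33.2% of an array's deposited intensity column, so background was subtracted upstream. The deposited value table of processed intensity, with column medians of 155.38 to 155.42, ranked probes exactly as the scanner table did and served as an alternative; its normalization method was not stated.

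With R 4.3.3 and limma 3.58.1, neqc (offset 16) corrected, quantile-normalized and log2-transformed the 9 arrays. The model had a term for each of the 3 diets (6 residual degrees of freedom). Precision is limited by the number of arrays. Each p-value sets a difference against the spread between mice of a diet, pooled over the 3 diets and moderated across probes. An exact two-sided permutation test of 3 against 3 could not go below 0.1. Genes were named through the platform annotation (34885 probes with 1 symbol, 18 with several, 10378 with none), updated by Entrez ID to RefSeq. Named genes were the 15 largest falls and rises among called probes without overlap, called list members, and up to 6 brightest members of 3 lists. The members and gene lists were chosen with earlier results of these data known. Where a probe was not detected in any mouse of a diet, the difference is a bound, "at least N-fold", from the brighter diet's mean against the higher of the dim probe's own signal and the lowest detected signal of each array. Slide and scan batches were not used here. Replicate numbers were not treated as pairs, since the labels do not say what they mark. Deviations from diet means correlated at -0.55, 0.48 and 0.26 between HFD and HFDM mice of the same number. So few values cannot decide whether the mice were paired. The main fit was tested on simulated data with independent noise for each probe and array. Differences that many probes of an array share, such as those of the testis markers, were not simulated.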

Additional observations from a re-analysis of the deposited data

How the results depend on the processing

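The number of called probes changed across 21 alternative settings and 2 more chosen after seeing the data, and the cause was not tested. Their direction says nothing about stability, since no called probe overlapped between the diets. The number called was 83 (73 lower) with median scaling, 106 without a detection filter (100 lower, 6 higher), 400 with detection at p under 0.01 on all 3 arrays of a diet (338 lower, 62 higher), 291 with a robust variance trend (252 lower, 39 higher) and 65 against a 1.2-fold threshold (62 lower, 3 higher). Array weights ran from 0.303 for ND mouse 1 to 4.88 for HFDM mouse 3, with 0.544 and 0.689 for HFDM mice 1 and 2. The weighted HFDM level thus rested mostly on mouse 3. With these weights 1648 were called (1224 lower, 424 higher), so that 74.3% were lower against 91.7%. Higher calls numbered 25 without background correction, 29 with an offset of 50, 30 with the deposited processed values and 35 with the HFD and HFDM arrays alone. Leaving out 1 array at a time gave 4 to 278 calls, 4 to 230 lower and 0 to 48 higher. The lowest count came without HFD replicate 2 and the highest without ND replicate 1. With the replicate number as a block, a pairing that the labels do not state, 37 were called (36 lower, 1 higher). With the testis marker level as a covariate 104 were called (93 lower). The 4 arrays without bright testis markers gave 29 (16 lower, 13 higher), a lower share of 55.2%, and there HFDM is a single mouse assumed to vary like the others. Signal over background limits the 33 lower and 2 higher called probes not detected in the dimmer diet to a bound.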

Other observations

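Other immune genes, chosen here after their values were seen, were also called lower in HFDM. Irf8 and Irf5, transcription factors of myeloid cells, differed by -1.66 ± 0.20 and -1.25 ± 0.20 (limma adjusted p = 0.0119 and 0.0344). Irf8 measured 9.11, 9.46 and 9.23 in HFD and 7.45, 7.80 and 7.58 in HFDM. Nceh1, a neutral cholesterol ester hydrolase of macrophages, measured 11.19, 11.72 and 11.10 in HFD and 9.50, 9.81 and 9.43 in HFDM. Chil3 and Arg1, genes of alternatively activated macrophages in mice, were not detected on any HFDM array and were at least 3.84-fold and 3.77-fold lower. Another called Chil3 probe was at least 2.72-fold lower. Chil3 has close paralogs whose signals its probes may share. Lbp, which binds bacterial lipopolysaccharide, measured 12.82, 12.91 and 12.82 in HFD and 11.57, 11.72 and 11.99 in HFDM. Ccl7 and Mmp3 were called on 1 probe each, while their brightest probes had an adjusted p of 0.0563 and 0.104 by limma. Among mitotic genes outside the cell cycle list, Spc25, a kinetochore subunit, and Gtse1, a microtubule-associated protein, were each called lower on 2 probes, and Ncaph, a condensin subunit, and Cenpm, a centromere protein, on 1 probe.

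Of 43 called genes with further tested probes that were not called, 55 of the 58 further probes lay in the same direction. The 3 opposite ones belonged to Trim36, with 2 probes that followed the testis markers at up to 12.41 in HFDM mouse 1, and to Dpep2.

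Of the tested probes, 956 were at least 2-fold higher in HFDM without being called. Of these 781 (81.7%) had HFD mouse 3 above both other HFD mice and HFDM mouse 2 below both other HFDM mice, an order seen in 9.18% of all tested probes. The testis markers had the same order.

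HFDM mouse 3 stood apart in genes of brown fat. Ucp1, the uncoupling protein, measured 4.78, 4.63 and 12.37 in the HFDM mice and 7.74, 5.02 and 4.73 in the HFD mice, and was detected on too few arrays to be tested. Cidea measured 6.90, 7.33 and 11.88 in HFDM. Svs5, a seminal vesicle secretory gene, measured 11.78 in HFDM mouse 2 and 15.34 in ND mouse 2, and at most 6.49 on the other 7 arrays.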
